A study of Mus musculus with 7 samples.

Results

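The 10 genes described here, chosen by name from 22072 protein-coding genes of the mouse annotation, encode ligands, receptors and antagonists of bone morphogenetic protein (BMP) and growth differentiation factor (GDF) signalling. They are the ligands Bmp2, Bmp4, Bmp6, Bmp7 and Gdf5, the type I receptors Bmpr1a and Bmpr1b, and the secreted antagonists Nog (noggin), Chrd (chordin) and Grem1 (gremlin). For each gene, peaks were collected at the promoter (up to 1 kb from the transcription start site, TSS), in the gene body and within 100 kb of either end of the gene. The study mapped enhancers of primary chondrocytes, the cells of cartilage, by chromatin immunoprecipitation sequencing (ChIP-Seq) of H3K27ac, an acetylation of active promoters and enhancers, and of H3K4me2, a methylation of promoters and enhancers. Rib chondrocytes of newborn mice gave 2 H3K27ac replicates and 1 H3K4me2 library, and dermal fibroblasts from the dorsal skin of newborn mice gave 1 H3K27ac library as the control cell type. A further H3K27ac library came from WT rib chondrocytes and another from rib chondrocytes of E160Δ/Δ E308Δ/Δ littermates, which lack both copies of 2 enhancers of Sox9, the master transcription factor of cartilage. The enhancers were deleted by genome editing of embryos from C57BL/6J mice. Chondrocytes were used within 2 passages, so that both marks were read in cultured cells and not in cartilage. The labels do not say which animals gave each library. Peak lists of these 6 libraries were analysed.

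BMP and GDF ligands bind pairs of type I and type II receptors, which phosphorylate SMAD1, SMAD5 and SMAD9. These SMADs enter the nucleus with SMAD4 and turn on targets such as the Id genes. The secreted antagonists bind ligands outside the cell and keep them from their receptors. In cartilage the pathway is needed for mesenchymal condensation and for chondrocyte differentiation, GDF5 marks the forming joint, and BMPR1A and BMPR1B overlap in function.

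The lists held between 19458 peaks (fibroblasts) and 66369 peaks (H3K4me2). They give no read numbers, so the depth behind a peak is unknown and a missing peak cannot be told from one below the limit of the caller. Scores were compared only within a list, as a rank: a peak in the top 5% has a score reached by at most 5% of the peaks of its list. Replicate 2 fitted GRCm38 gene positions (43.0% of 20117 promoters marked, against 6.26% with mm9 positions), whereas the other 5 lists fitted mm9 (44.2% to 66.1%, against 6.75% to 15.1% with GRCm38 positions). Its promoters were therefore called at GRCm38 starts, and its peak distances were taken from the mm9 start of each gene moved into GRCm38. Of 12 chondrocyte marker genes, 10 had an H3K27ac promoter in each of replicate 2, WT and the deletion list, 7 in replicate 1 and 1 (Sox9) in fibroblasts. Col2a1 and Sox9 had none in replicate 1. Of 8 dermal fibroblast markers, 4 were marked in fibroblasts, while 4, 6, 7 and 7 were marked in replicate 1, replicate 2, WT and the deletion list, so those markers do not set the cell types apart, and their part in the results below was not tested. Promoters of 3 keratinocyte, 3 endothelial, 3 blood and 3 muscle markers had no H3K27ac peak in any list, and of 3 osteoblast markers Sp7 had one in WT. No group had more than 2 libraries, so no test between groups was made, and each difference is between lists.

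Both receptors had an H3K27ac promoter in all 4 chondrocyte lists (2 of the 10 members, against 37.9% of all genes), and the ligands Bmp6, Bmp7 and Gdf5 and the antagonist Grem1 in none of them (4 members, against 47.3%). Replicate 1 marked 2 of the 10 members, Bmpr1a and Bmpr1b, where 41.6% of all genes were marked. Replicate 2 marked Bmp2, Bmpr1a, Bmpr1b and Nog, 4 members against 43.0% of genes. The WT list marked 6 members, Bmp2, Bmp4, Bmpr1a, Bmpr1b, Nog and Chrd, against 47.2% of genes. The deletion list marked the same members without Bmp4, 5 against 44.4%. Fibroblasts marked Bmpr1a, Nog and Chrd, 3 members against 44.7%. H3K4me2 marked 9 of the 10 members, all but Bmp4, against 62.7% of genes. H3K27ac in at least 1 of the 5 H3K27ac lists was found at 6 members, where 54.4% of genes had it, a share near the background. Both replicates marked 2 members, where 38.4% of genes were marked in both.

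**Figure D1:**
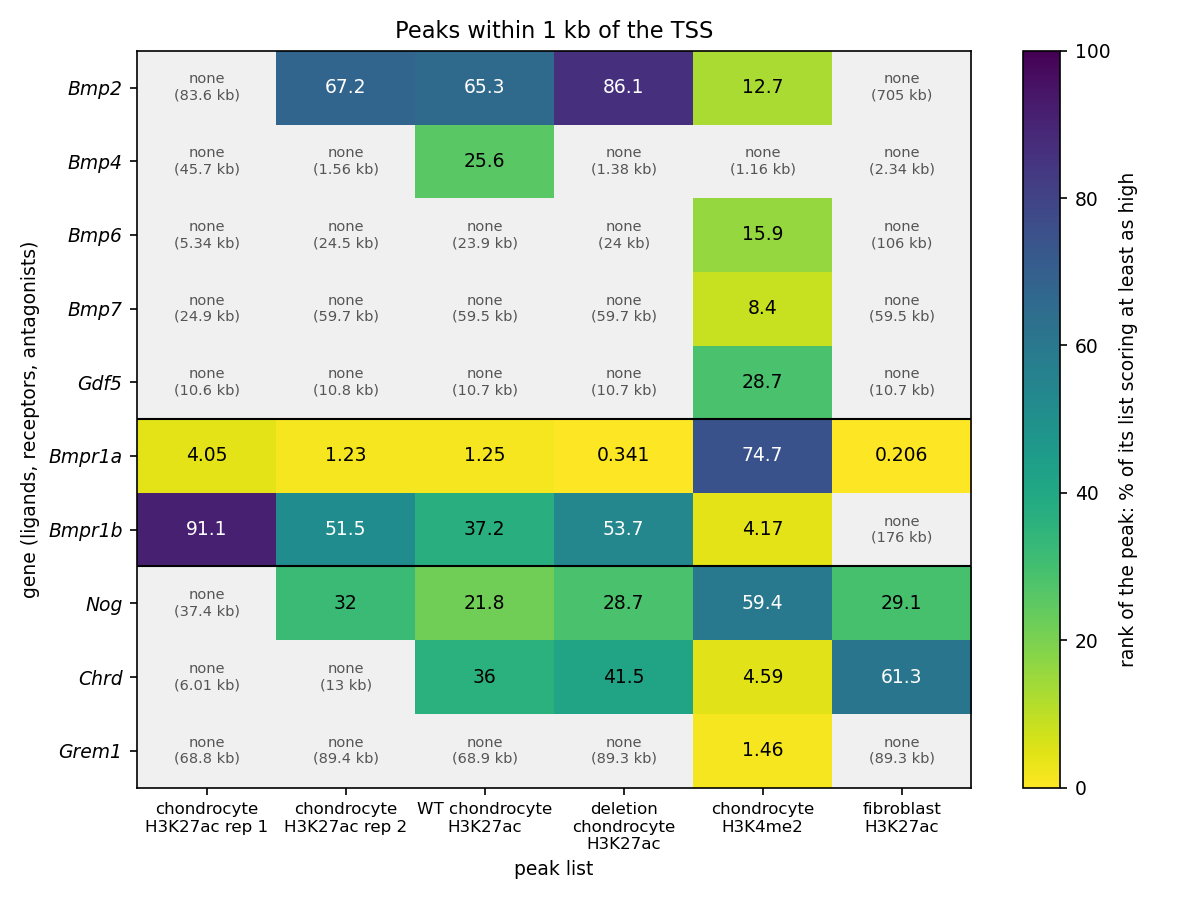
Peaks within 1 kb of the TSS for the 10 genes (rows) in the 6 lists (columns). Coloured cells give the rank of the peak as the percentage of its list that scores at least as high, so low values are strong peaks; grey cells had no such peak, with the distance to the nearest peak in kb. Bmpr1a had a peak in all 6 lists, and Bmp6, Bmp7, Gdf5 and Grem1 had one in the H3K4me2 list alone.

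Sequences of 3 promoters are shown because they stand for patterns that differed: Bmpr1a, marked in every list, and Bmp7 and Grem1, with H3K4me2 and no H3K27ac. Each is the 250 bases before the TSS in mm9, on the strand of the gene: chr14:35316528-35316777 (Bmpr1a), chr2:172765823-172766072 (Bmp7) and chr2:113598804-113599053 (Grem1), all on the minus strand. Capitals mark matches, on either strand, to ACAATG or ACAAAG (SOX-type), CAGAC or GGCGCC (SMAD-type) or TATAAA.
Bmpr1a promoter: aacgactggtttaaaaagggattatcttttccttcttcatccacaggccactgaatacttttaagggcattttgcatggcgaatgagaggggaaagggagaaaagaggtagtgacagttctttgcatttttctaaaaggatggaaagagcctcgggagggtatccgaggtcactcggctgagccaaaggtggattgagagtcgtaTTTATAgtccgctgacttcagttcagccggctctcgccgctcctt
Bmp7 promoter: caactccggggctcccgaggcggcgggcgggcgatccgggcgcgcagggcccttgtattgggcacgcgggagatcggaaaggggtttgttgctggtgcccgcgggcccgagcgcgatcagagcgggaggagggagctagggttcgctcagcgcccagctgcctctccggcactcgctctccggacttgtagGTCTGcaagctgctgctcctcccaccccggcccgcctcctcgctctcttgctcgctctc
Grem1 promoter: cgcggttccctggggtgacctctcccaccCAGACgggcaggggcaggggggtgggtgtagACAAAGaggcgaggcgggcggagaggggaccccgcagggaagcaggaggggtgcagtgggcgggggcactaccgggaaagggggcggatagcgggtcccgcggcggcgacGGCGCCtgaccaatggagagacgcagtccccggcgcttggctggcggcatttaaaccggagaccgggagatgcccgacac
Bmpr1a held TATAAA on the opposite strand, Bmp7 held CAGAC, and Grem1 held a match to ACAAAG and to both SMAD-type motifs. Over all 22072 promoters of this length, 9.14% held ACAATG and 0 of the 10 members did. ACAAAG was found in 15.4% of all promoters and in 1 member, and CAGAC was found in 40.7% and in 2 members. GGCGCC was found in 11.2% of all promoters and in 2 members, and TATAAA was found in 12.4% and in 1 member. These windows differed in CpG dinucleotides, with 10 in Bmpr1a, 27 in Bmp7 and 24 in Grem1, against a median of 8 over all promoters. The promoters with H3K4me2 alone thus included CpG-rich ones, but Gdf5 had 3 CpG and Bmp6 had 11. Promoters with H3K27ac in at least 1 list also varied, with 33 in Bmp2, 28 in Chrd, 23 in Nog, 14 in Bmpr1b and 11 in Bmp4. CpG number therefore did not set the 2 patterns apart.

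Bmp2, a ligand that drives cartilage and bone formation, lies at chr2:133377895-133388621. Its promoter had an H3K27ac peak in replicate 2 (top 67.2%, 4.28-fold over control), the WT list (top 65.3%, 5.54-fold) and the deletion list (top 86.1%, 4.22-fold), all in the weaker part of their lists. Replicate 1 had no peak within 83.6 kb of the TSS, and in fibroblasts the nearest was 705 kb away. The H3K4me2 peak over the Bmp2 TSS was 3898 bp wide and in the top 12.7%. Around Bmp2, replicate 1 alone had distal H3K27ac, at 84.2 kb upstream (top 65.4%) and 93.1 kb downstream (top 99.5%), while H3K4me2 had 8 distal peaks.

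Bmp4, a ligand close to Bmp2 in sequence, lies at chr14:47003195-47010344 and had H3K27ac over part of the gene body in every H3K27ac list but replicate 1. In WT 1 peak of 5378 bp covered most of the gene and came within 278 bp of the TSS (top 25.6%, 13.3-fold). The deletion list had 3 peaks in the same gene body (top 31.3%, 40.2% and 50.2%, at 10.8, 8.89 and 6.98-fold), whose nearest edge lay 1.38 kb from the TSS. So Bmp4 counted as marked in WT and not in the deletion list, as did 2.90% of all genes, through the position of a peak edge. Replicate 2 had 3 body peaks 1.56 kb or more from the TSS, fibroblasts had 1 body peak (top 52.7%) starting 2.34 kb away, and H3K4me2 ended 1.16 kb away. Replicate 1 had no H3K27ac peak within 45.7 kb of the Bmp4 TSS.

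Bmp6, Bmp7 and Gdf5, ligands of the growth plate, of kidney and skeleton, and of joints, lie at chr13:38436995-38592183, chr2:172693513-172765822 and chr2:155766759-155771103. They had no H3K27ac peak within 1 kb of the TSS in any list. All 3 had an H3K4me2 peak there, in the top 15.9%, 8.40% and 28.7% of that list and 4059, 2876 and 2726 bp wide. Grem1, an antagonist at chr2:113586321-113598803, had the same pattern with the H3K4me2 peak in the top 1.46%. H3K4me2 without H3K27ac in any of 5 lists was therefore seen at 4 of the 10 members and at 14.2% of all genes. The nearest H3K27ac peak to the Grem1 TSS was 68.8 kb away in replicate 1 and 68.9 kb away in WT, and 89.3 kb or more away in the other 3 lists, which is the promoter of Arhgap11a.

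Bmpr1a, the broadly expressed type I receptor at chr14:35223920-35316527, had the strongest promoter peaks of the 10 members in every H3K27ac list. Replicate 1 placed the peak in its top 4.05%, replicate 2 in its top 1.23%, WT in its top 1.25%, the deletion list in its top 0.341% and fibroblasts in their top 0.206%. The H3K4me2 peak over the same TSS ranked only in the top 74.7%. Bmpr1a thus combined strong H3K27ac with a weak H3K4me2 peak, whereas Grem1 had strong H3K4me2 and no H3K27ac. Bmpr1a was marked in all 6 lists, as were 35.9% of genes.

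Bmpr1b, the type I receptor that is enriched in prechondrogenic condensations, lies at chr3:141500100-141832389. It was acetylated at the promoter in replicate 1 (top 91.1%), replicate 2 (top 51.5%), WT (top 37.2%) and the deletion list (top 53.7%), and in fibroblasts the nearest peak was 176 kb away. Marks in all 4 chondrocyte lists without fibroblasts were seen at 1.44% of all genes, and of the members at Bmpr1b alone. The weaker rule, WT and the deletion list without fibroblasts, took Bmpr1b and Bmp2 and 3.32% of genes. The Bmpr1b promoter peaks were 343 to 661 bp wide in these lists, against 1863 to 4120 bp at Bmpr1a.

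Nog and Chrd, antagonists that sequester BMP ligands, were both acetylated in WT and fibroblasts and not in replicate 1, a pattern of 4.69% of genes. Nog (chr11:89161952-89163873) was in the top 32.0% of replicate 2, 21.8% of WT, 28.7% of the deletion list and 29.1% of the fibroblast list, with H3K4me2 in the top 59.4%. Replicate 1 had no peak within 37.4 kb of its TSS. Chrd (chr16:20733200-20742457) was in the top 36.0% of WT, 41.5% of the deletion list and 61.3% of the fibroblast list, and its H3K4me2 peak in the top 4.59%. Its nearest peak was 6.01 kb away in replicate 1 and 13.0 kb away in replicate 2, although the TSS used for Chrd differs by 1702 bp between the annotations of the builds. Replicate 1 and replicate 2 therefore gave the same call at 8 of the 10 promoters and differed at Bmp2 and Nog. Of 20117 genes, replicate 1 marked 44.2%, replicate 2 marked 43.0% and both marked 38.4%.

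Away from promoters, the members had more peaks in total in each chondrocyte list than in fibroblasts, as did all genes by the mean. Distal peaks, those farther than 1 kb from the TSS of any protein-coding gene, numbered 35 (replicate 1), 19 (replicate 2), 32 (WT), 19 (deletion list), 114 (H3K4me2) and 7 (fibroblasts). In the same order, members with at least 1 distal peak numbered 10, 5, 8, 6, 10 and 5. Of all genes, 35.3%, 44.2%, 35.4%, 44.4%, 14.5% and 43.7% had no distal peak in these lists. The median number of distal peaks per member was 2, 0.5, 1.5, 1, 9 and 0.5, where all genes had medians of 1, 1, 2, 1, 5 and 1. The mean per member was 3.5, 1.9, 3.2, 1.9, 11.4 and 0.7, where all genes had means of 2.01, 1.98, 3.12, 2.2, 5.77 and 1.36. By both measures the members had more peaks than all genes in replicate 1 and H3K4me2 and fewer in replicate 2 and fibroblasts, whereas in WT the median was lower and the mean was not. These counts were not scaled by the length of the gene. Closeness alone does not show that a peak acts on the member, since 28 of the 55 distal H3K27ac regions of the mm9 lists had the member as the nearest TSS.

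**Figure D2:**
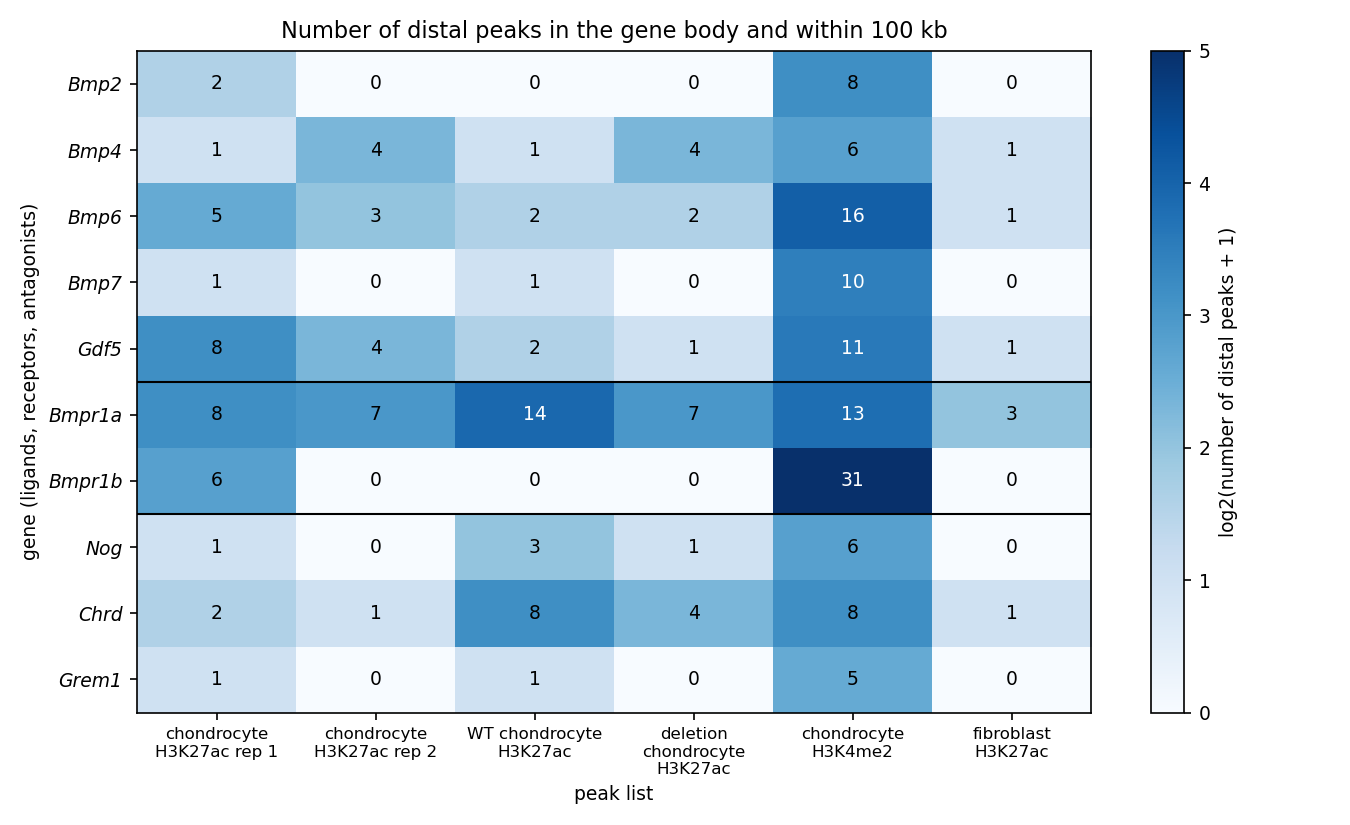
Number of distal peaks in the gene body and within 100 kb for each gene (rows) and list (columns), with colour on a log2(number + 1) scale. Bmpr1b had 31 H3K4me2 peaks and no distal peak in replicate 2, WT, the deletion list or fibroblasts; Bmpr1a had the most distal peaks in the WT, deletion and fibroblast lists.

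Bmpr1b had the most H3K4me2 of the members, with 31 distal peaks covering 32.2 kb, 25 of them inside the gene of 332 kb. That count was higher than in 99.8% of genes. Longer genes had longer windows, and the counts compared between genes here were not scaled by length. Replicate 1 had 6 distal H3K27ac peaks near Bmpr1b (top 50.6% to 93.5%), 5 of them in introns, and all 6 lay on H3K4me2. None of the other H3K27ac lists had a distal peak there. Bmpr1a had 14 distal peaks in WT, more than 96.8% of genes, and 8, 7, 7 and 3 in replicate 1, replicate 2, the deletion list and fibroblasts. In the same order, the nearest TSS was that of Bmpr1a for 5, 1, 1, 0 and 0 of these peaks. Bmp6 had 16 H3K4me2 peaks (more than 96.2% of genes) and Gdf5 had 8 in replicate 1 (more than 96.3%). All 8 near Gdf5 were closer to the TSS of another gene, most of them in introns of the neighbouring gene Uqcc.

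**Figure D3:**
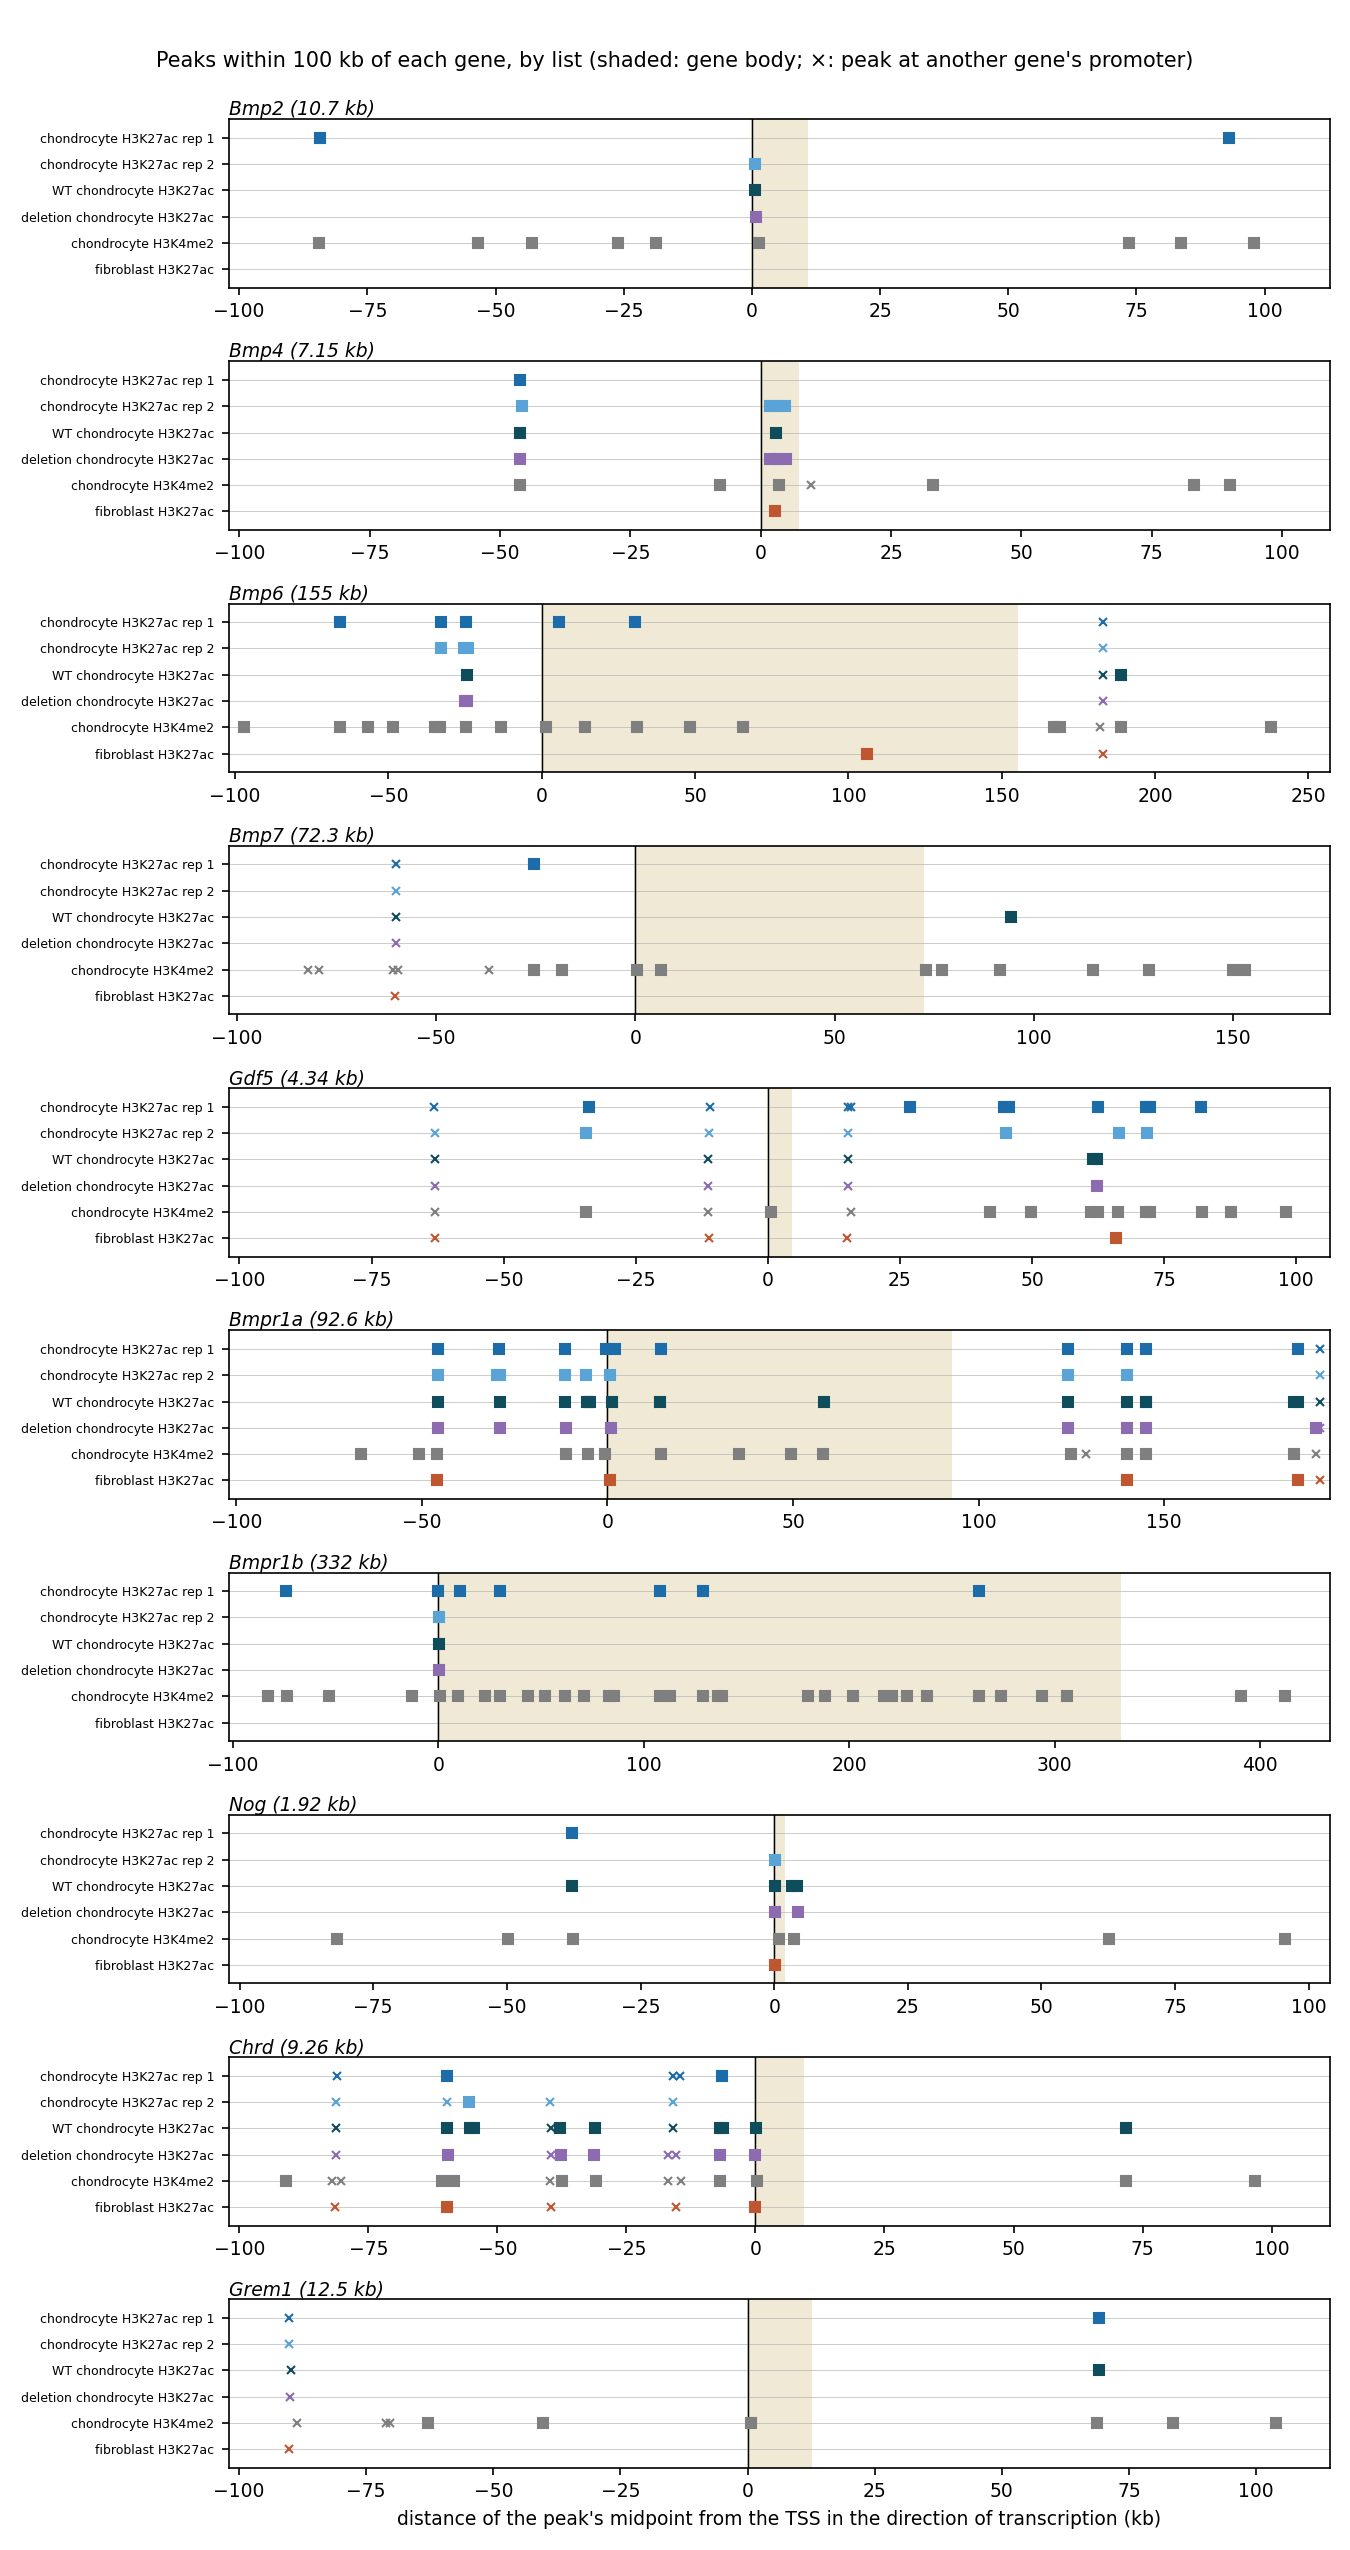
Midpoints of all peaks of the 6 lists against distance from the TSS in kb, in the direction of transcription, 1 panel for each gene. Shading is the gene body, squares are peaks of the gene or distal peaks, and crosses are peaks at the promoter of another gene. The H3K4me2 peaks run through the whole Bmpr1b gene, while fibroblast squares appear near 6 of the 10 genes, including promoters.

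Sequences of 4 distal regions are shown because they carry chondrocyte H3K27ac near ligands (Bmp4 and Bmp6), a receptor (Bmpr1a) and an antagonist (Nog). Each is the 200 bases around the WT summit in mm9 on the plus strand, with capitals as above: chr14:47056058-47056257 (46.1 kb upstream of Bmp4, intergenic), chr13:38411944-38412143 (24.7 kb upstream of Bmp6, intergenic), chr14:35362221-35362420 (45.6 kb upstream of Bmpr1a, in an intron of Ldb3) and chr11:89159588-89159787 (4.25 kb downstream of the Nog TSS, intergenic).
Bmp4 upstream region: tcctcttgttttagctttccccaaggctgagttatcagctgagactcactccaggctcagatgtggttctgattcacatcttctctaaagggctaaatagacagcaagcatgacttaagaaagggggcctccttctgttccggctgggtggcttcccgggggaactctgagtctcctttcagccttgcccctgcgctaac
Bmp6 upstream region: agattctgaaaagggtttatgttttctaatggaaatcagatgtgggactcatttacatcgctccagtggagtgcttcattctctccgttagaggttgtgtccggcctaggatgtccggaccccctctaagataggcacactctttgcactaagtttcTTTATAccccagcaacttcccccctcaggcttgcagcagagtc
Bmpr1a upstream region: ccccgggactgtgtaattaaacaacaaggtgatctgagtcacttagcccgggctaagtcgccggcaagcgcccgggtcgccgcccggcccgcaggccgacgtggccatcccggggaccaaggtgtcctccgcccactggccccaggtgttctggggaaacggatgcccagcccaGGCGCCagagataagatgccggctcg
Nog downstream region: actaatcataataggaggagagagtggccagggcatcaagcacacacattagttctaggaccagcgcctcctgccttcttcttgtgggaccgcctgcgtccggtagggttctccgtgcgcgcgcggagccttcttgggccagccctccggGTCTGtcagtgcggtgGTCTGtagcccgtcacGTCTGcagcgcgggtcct
The Nog region had H3K27ac in WT (top 46.3%) and the deletion list (top 73.1%) and in neither replicate. The Bmp4, Bmp6 and Bmpr1a regions had it in all 4 chondrocyte lists. Of the 4 regions, only the Bmpr1a one also had it in fibroblasts (top 40.5%). The Nog window held CAGAC 3 times, the Bmpr1a window held GGCGCC, the Bmp6 window held TATAAA and the Bmp4 window held none of the motifs. Over the 29 distal regions with a WT summit near the members, 14 held CAGAC (48.3%), against 42.7% of all 23018 WT distal windows. ACAATG was in 1 and ACAAAG in 2 of the 29 (all windows 8.54% and 17.3%), and GGCGCC and TATAAA in 2 each (all windows 2.4% and 8.85%). The Bmpr1a window had 18 CpG and the Nog window 15, where the median over all windows was 2.

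In all, 5 distal regions were acetylated in all 4 chondrocyte H3K27ac lists and not in fibroblasts, near Bmp4, Bmp6 and Bmpr1a, and none had a fibroblast peak within 1 kb. A sixth, 191 kb downstream of the Bmpr1a TSS, was left out because it lies within a promoter peak of Fam35a and Glud1 in replicate 1 and WT. The shares of all distal regions with such patterns were not measured. Counts of regions by pattern, here and below, therefore only describe the windows of the members. The Bmp4 region at chr14:47055909-47057064 was in the top 41.2% of replicate 1, 67.2% of replicate 2, 35.2% of WT and 44.0% of the deletion list, and lay on an H3K4me2 peak (top 26.0%). It lies within 1 kb of the start of Gm15221, a gene model that is not protein-coding. The Bmp6 region at chr13:38411230-38413310 was in the top 5.94% of replicate 1, but 60.4%, 72.4% and 98.1% in replicate 2, WT and the deletion list. Near Bmpr1a these were the regions 11.4 kb and 29.0 kb upstream and 124 kb downstream of the TSS. The region 11.4 kb upstream was in the top 27.7% of replicate 1. In replicate 2, WT and the deletion list it was among the weakest peaks (top 96.4%, 93.7% and 99.4%). In the same order of lists, the region 124 kb downstream ranked in the top 53.4%, 51.5%, 78.0% and 74.2%. The region 29.0 kb upstream (top 60.3%, 59.7%, 45.4% and 63.4%) had no H3K4me2 peak.

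A further 3 regions were acetylated in all 4 chondrocyte lists and in fibroblasts. The region 45.6 kb upstream of Bmpr1a was in the top 7.62%, 18.4%, 14.1%, 20.8% and 40.5% of the replicate 1, replicate 2, WT, deletion and fibroblast lists. The region 140 kb downstream of the same TSS ranked in the top 29.0%, 42.6%, 31.9%, 43.1% and 33.6%. The region 59.7 kb upstream of Chrd ranked in the top 18.4%, 4.80%, 1.69%, 2.98% and 1.25%. It was the strongest of the 3 in every H3K27ac list but replicate 1. This region lies over a UTR of Eif4g1 in mm9 and counts as a promoter of Eif4g1 in GRCm38. In fibroblasts alone, 1 region was seen, 106 kb into Bmp6 (top 92.6%). Regions marked in fibroblasts and not in replicate 1 were also found in the body of Bmp4 and 65.9 kb downstream of Gdf5 (top 82.4%), both with H3K27ac in replicate 2.

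For the remaining members, the strongest distal peak of replicate 1 without a fibroblast peak lay 84.2 kb upstream of Bmp2 (top 65.4%), 25.3 kb upstream of Bmp7 (top 62.2%), 71.5 kb downstream of the Gdf5 TSS (top 41.2%), 10.3 kb into Bmpr1b (top 50.6%), 37.8 kb upstream of Nog (top 51.4%), 6.5 kb upstream of Chrd (top 68.9%) and 69.1 kb downstream of the Grem1 TSS (top 63.3%). All 7 lay on H3K4me2.

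Of the 35 distal peaks of replicate 1 near the members, 31 had no fibroblast peak (88.6%, 95% interval 73.3% to 96.8%, exact binomial), against 70.7% of all 15872 distal peaks of that list. The 4 shared ones lay near Bmpr1a (3) and Chrd (1). Among the higher-scoring 50% of each list the share was 72.7% of 11 peaks (39.0% to 94.0%), against 73.8% of all 6061 such peaks. For WT the share was 28 of 32 (87.5%, 71.0% to 96.5%) against 74.6%, so the interval covers the value over all peaks. Intervals cover counting error only, and neighbouring peaks of a gene are not independent. In the other direction, 3 of 7 fibroblast peaks had no replicate 1 peak (42.9%, 9.90% to 81.6%), against 56.8%. H3K4me2 overlapped 29 of the 35 replicate 1 peaks (82.9%, 66.4% to 93.4%), against 86.6%, and 28 of the 32 WT peaks (87.5%), against 71.8%. When each peak had to cover at least 50% of the other, H3K4me2 overlapped 42.9% of the replicate 1 peaks. Conversely 75 of 114 H3K4me2 distal peaks lacked H3K27ac of replicate 1, WT and the deletion list (65.8%, 56.3% to 74.4%), close to 64.3% of all.

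**Figure D4:**
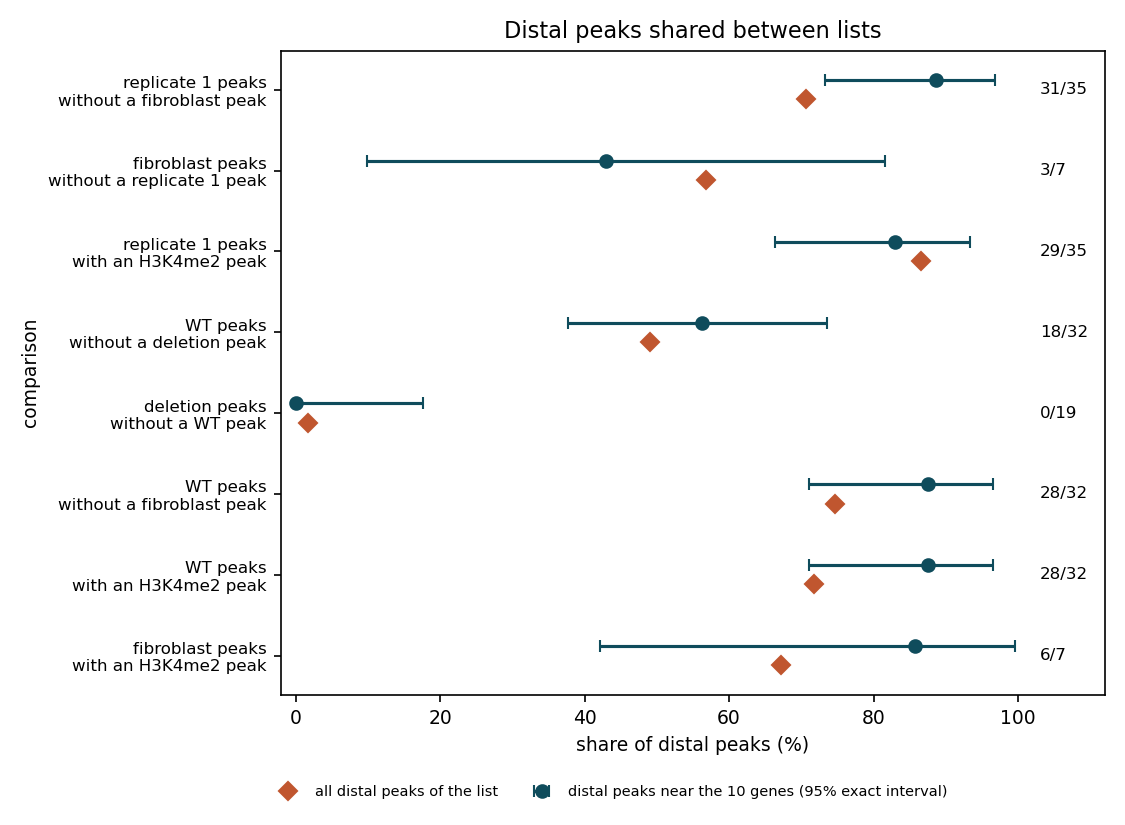
Share of distal peaks in percent for 8 comparisons between lists: circles with bars are the peaks near the 10 genes with exact 95% intervals (counting error only), diamonds are all distal peaks of the same list, and counts stand at the right. The replicate 1 share without a fibroblast peak (31 of 35) lies above the diamond, and the other 7 intervals reach theirs.

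Near the members, replicate 1 shared all of its promoter peaks with replicate 2 and fewer of its distal ones. The same shares over all peaks of the lists were not measured, so they cannot be read as a trait of these genes. All 14 promoter peaks of replicate 1 in these windows, of members and of other genes, had a replicate 2 peak at the same distance from the TSS within 1 kb, but 14 of 35 distal peaks did (40.0%, 23.9% to 57.9%). In the other direction, 12 of 15 promoter peaks of replicate 2 had a replicate 1 peak (80.0%, 51.9% to 95.7%). Of 19 distal peaks of replicate 2, 13 had a replicate 1 peak (68.4%, 43.4% to 87.4%) and 5 a fibroblast peak (26.3%). Of the 20 distal regions seen in 1 chondrocyte H3K27ac list and not in fibroblasts, 14 were of replicate 1 and 6 of WT. The regions were built from the mm9 lists, so a region of replicate 2 alone could not enter this count.

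The deletion of E160 and E308 was compared with WT next. Of the 32 WT distal peaks near the members, 18 had no deletion peak (56.2%, 37.7% to 73.6%), against 49.1% of all WT distal peaks. The peaks without a partner were the weaker ones. None of the 7 in the top 50% of the WT list was missing (0%, 0% to 41.0%), against 3.32% of all such WT distal peaks. In the lower 50%, 18 of the 25 were missing, against 72.1% of all such peaks. The missing peaks ranked between 54.8% and 95.4% (median 77.5%), and the others between 1.69% and 93.7% (median 51.1%). They included 8 of 14 peaks near Bmpr1a, 4 of 8 near Chrd and 2 of 3 near Nog. No deletion peak lacked a WT peak (0 of 19, up to 17.6%), against 1.78% of all. When each peak had to cover at least 50% of the other, the 2 shares were 75.0% and 57.9%, and 18 of the 19 deletion peaks were narrower than the WT peak they overlapped. No member promoter was marked in the deletion list alone (0.00497% of genes).

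**Figure D5:**
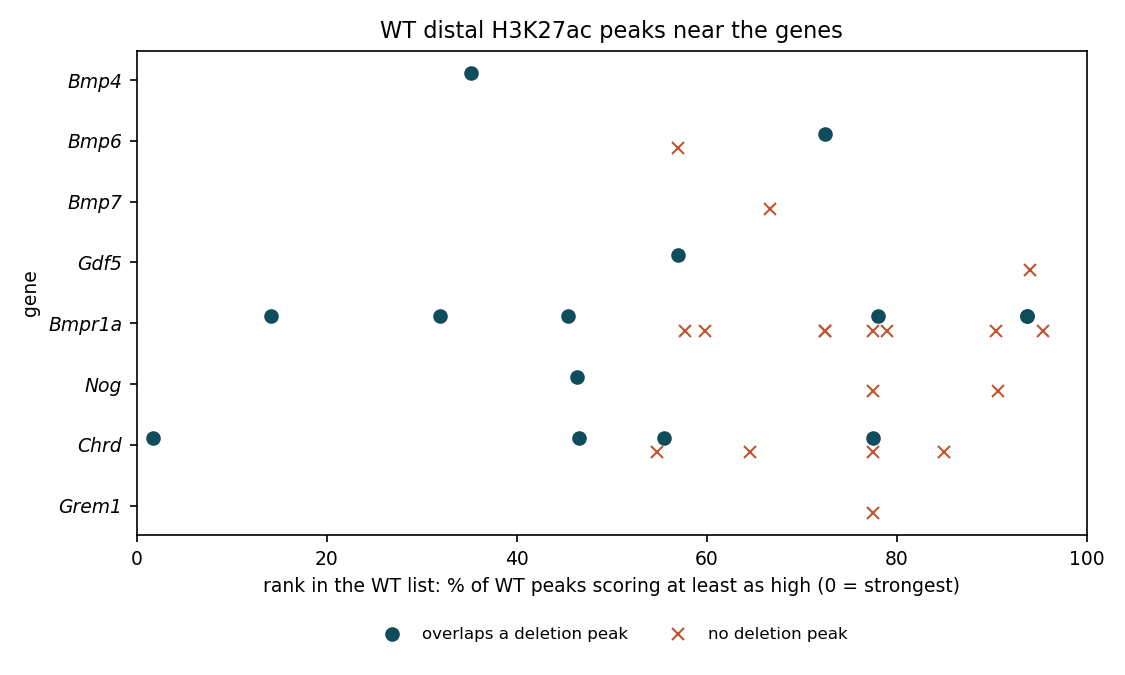
Rank in the WT list (horizontal axis, percentage of WT peaks that score at least as high) of the 32 WT distal peaks near 8 of the genes. Circles overlap a peak of the deletion list and crosses do not; all crosses lie beyond 54.8%.

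At the 5 promoters marked in both lists, the fold enrichment over control was lower in the deletion list at all 5, as at 97.1% of the 9798 genes marked in both. The ratio of deletion to WT was 0.762 at Bmp2, 0.907 at Bmpr1a, 0.680 at Bmpr1b, 0.694 at Nog and 0.808 at Chrd, and the median over all genes was 0.692. The lower values and the shorter list (25230 against 33392 peaks) were thus shared by the whole library, and with 1 library each, genotype and library cannot be told apart.

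A wider list of 43 genes of the pathway put these members in context. It was marked at 25 promoters (replicate 1), 25 (replicate 2), 29 (WT), 25 (deletion list), 40 (H3K4me2) and 26 (fibroblasts), which is 58.1%, 58.1%, 67.4%, 58.1%, 93.0% and 60.5% of the list, against 41.6%, 43.0%, 47.2%, 44.4%, 62.7% and 44.7% of all genes. The 8 signal carriers and their inhibitors, such as Smad1, Smad5 and Smad4, were marked in all 4 chondrocyte H3K27ac lists, and 7 of them in fibroblasts. By contrast, of 8 further ligands 1 was marked in the chondrocyte H3K27ac lists and none in fibroblasts, while 6 had H3K4me2. The wider list's receptors and co-receptors were all 9 marked in WT, in H3K4me2 and in fibroblasts, and 6, 5 and 5 of them in replicate 1, replicate 2 and the deletion list. H3K4me2 without any H3K27ac was seen at 10 of the 43 genes, against 14.2% of all genes: Bmp3, Bmp8a, Bmp8b, Gdf6, Gdf7, Gdf10, Chrdl2, Sostdc1, Msx1 and Msx2.

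Within the wider list, 4 genes (against 1.56% of all genes) were acetylated in both replicates and WT and not in fibroblasts, namely the ligand Bmp5 (top 21.1%, 18.9% and 8.97%), the SMAD Smad9 (14.2%, 34.9% and 34.3%), the target Id2 (14.3%, 15.5% and 11.4%) and the homeobox gene Dlx5 (33.3%, 40.0% and 20.4%). Marks in WT and not in the deletion list were seen at the receptors Acvrl1 and Acvr2b and the co-receptors Eng and Rgma, whose WT peaks ranked between the top 50.5% and 64.0% (4 genes, against 2.90% of all genes), and the reverse at none. All 6 lists marked 18 of the 43, against 35.9% of all genes, among them Bmpr2, the type II receptor, and Id1 and Id3. Bmp10 and Sost were marked in none.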

How the data were processed

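Peak lists of 6 ChIP-Seq libraries were analysed; the input library (1 of the 7 samples) was not analysed here. Per the labels and the methods, reads were cleaned with fastp, aligned to mm9 with Bowtie2 (2.4.4), and peaks were called per library by the authors with MACS2 (2.2.4) against input, at the default threshold as stated. Replicate 2 matched GRCm38 positions and not mm9, so its promoters and peak classes were read with GRCm38 gene positions. For its peak distances, the mm9 start of each member was moved into GRCm38 by the shift between the builds near that gene. The shift was the most frequent one among RefSeq promoter sequences found in mm9, and at Grem1 5 of 9 such promoters gave it. No other coordinates were converted. The deposited score column of each list was used as a rank within its list. For replicate 2, WT and the deletion list, the deposited fold enrichment (a ratio over control) and the deposited −log10 q values were also read; the lowest −log10 q was 1.33, 2.05 and 2.01, and the lowest score of the lists without these columns was 50.0. The formats and the lowest values thus differ between lists, although a single threshold is stated; their part in differences between lists was not tested.

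Gene models came from GENCODE vM1 (mm9) and RefSeq (GRCm38), over chromosomes 1 to 19 and X, with genes of duplicated names left out (of 36 marker genes Runx2 was therefore not measured). The start used differed between the annotations by 1702 bp at Chrd, -590 bp at Bmp6 and 160 bp at Bmpr1b, and by at most 5 bp elsewhere. Promoters with any peak base at most 1 kb from the TSS counted as marked, and a peak was distal when it did not reach within 1 kb of any protein-coding TSS. Peaks were matched by an overlap of at least 1 bp, or, for replicate 2, by distance from the TSS within 1 kb. Shares carry exact (Clopper-Pearson) 95% intervals. The overlap steps were tested on simulated lists. Named genes were all 10 members, the genes of the wider list marked in both replicates and WT and not in fibroblasts, in fibroblasts and in none of replicate 1, replicate 2 and WT, or in only WT or the deletion list, and the strongest distal regions of replicate 1 and fibroblasts. Some items chosen by these rules are not reported here. The members, gene lists and comparisons were chosen with earlier results of these data known. Alternatives were the promoter and flank windows, stricter lists, other overlap rules and other libraries.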

Additional observations from a re-analysis of the deposited data

How the results depend on the processing

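Over 127 alternative values, 98 stayed within the range set by the main value (1.5 times for counts, the interval for shares) and 29 moved; none reversed. With the higher-scoring 50% of each list, marked promoters of the members numbered 1, 2 and 3 in replicate 1, replicate 2 and the deletion list, 1 member was marked in both replicates, distal peaks numbered 11, 2, 7, 6, 53 and 3 (replicate 1, replicate 2, WT, deletion, H3K4me2, fibroblasts), 72.7% of replicate 1 distal peaks lacked a fibroblast peak, and 0% of fibroblast peaks lacked a replicate 1 peak. With 50 kb flanks, distal peaks numbered 23, 21, 71 and 4 in replicate 1, WT, H3K4me2 and fibroblasts, and with 200 kb 59, 29, 62, 34, 181 and 15. Peaks of the deletion list over 5 kb from a TSS numbered 10. With reciprocal 50% overlap, H3K4me2 covered 42.9% of replicate 1 peaks, 75.0% of WT peaks lacked a deletion peak and 57.9% of deletion peaks lacked a WT peak, and with equal numbers of peaks H3K4me2 covered 45.7%. Fewer or more peaks enter by construction in the window and top-50% settings; for the other settings the cause was not tested.

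Leaving out a chondrocyte replicate gave 2 to 4 members with a marked promoter: 4 without replicate 1 and 2 without replicate 2, and 6 with WT in their place. A further definition of distal, farther than 1 kb from the start of any annotated transcript of any gene type, was chosen after seeing the data; it gave 32, 27, 15, 105 and 5 peaks in replicate 1, WT, the deletion list, H3K4me2 and fibroblasts and could not be applied to replicate 2, whose build has no transcript annotation here. No paired analysis was possible because no result comes from a test. WT and the deletion came from littermates, but with 1 library each they make a single pair. With 1 library in most groups and unknown depth, a missing peak may be a weak one.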
